A study of Mus musculus with 10 samples.

Results

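Of the 48795 genes listed in the RNA-seq count data of mouse subependymal zone (SEZ) cultures, 10 that encode Notch pathway components were examined here: the receptors Notch1, Notch2 and Notch3, the ligands Dll1, Dll3 and Jag1, and the targets Hes1, Hes5, Hey1 and Nrarp. They were picked by gene symbol, as the rows whose Ensembl identifier maps to these names. The choice was made with earlier results of these data known. All 10 passed the filter on low values and were tested. Their counts were between 67 (Hes5) and 17622 (Notch1) in single libraries with totals of 19190068 to 25291674 counts.

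NSC/NPCs, the neural stem and progenitor cells of the SEZ, were cultured from mice of 10 weeks of age and yielded 10 libraries. Proliferating cells (PRO) were neurospheres at 3 DIV (days in vitro) in medium with EGF at 20 ng/ml and FGF at 10 ng/ml. Differentiating cells (DIFF) had been plated on Matrigel for 2 DIV with FGF at 10 ng/ml, and were harvested 24 h after mitogen removal in medium with 2% serum, the stage called 2 + 1 DIV. Wild type cells (WT) gave 3 libraries per stage, and cells of mice lacking Cdkn1b, the gene of the cell cycle inhibitor p27, gave 2 libraries per stage (p27KO, kept on C57BL/6J). The p27 mutants came from Jackson Laboratory, and which part of Cdkn1b their allele lacks is not given in the sources used here. No agent other than the culture media was applied to any group. PRO and DIFF thus differed in substrate, growth factors, serum and time without mitogens at once, and these cannot be told apart in the stage comparison. The design calls the libraries biological replicates, without saying whether each came from its own mouse or culture.

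The labels held up only in part, and p27KO is used here as the name of the 4 libraries so labelled. A free-text field of these libraries names WT cells, while their titles and genotype field say p27KO. Cdkn1b was still counted in the libraries labelled p27KO, at 90.7 to 114 CPM (gene counts divided by the library total and put on the usual CPM scale) in PRO and 137 to 140 CPM in DIFF, against 103 to 112 and 205 to 209 CPM in WT. Xist did not exceed 2.57 CPM in the 6 libraries of WT and reached at least 2258 CPM in the 4 labelled p27KO, while 4 Y-linked genes summed to at least 189 CPM in WT and at most 0.585 CPM in the others. Genotype and sex therefore cannot be told apart in any comparison of genotypes below. Markers of neural stem and progenitor cells (Nes, Sox2, Vim, Pax6, Fabp7, Slc1a3, Egfr and Olig2) were present in all 10 libraries, with sums of 7301 to 8997 CPM. Single markers moved with stage alongside the Notch genes: in WT, Nes fell 8.95-fold, Olig2 2.89-fold and Vim 1.52-fold, while Slc1a3 rose 3.09-fold, Pax6 1.85-fold and Sox2 1.79-fold, each past the threshold of the test used below and in the same direction, also called, in p27KO. Their part in the Notch values was not tested.

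Notch receptors are single-pass membrane proteins that are cut after binding a Delta or Jagged ligand on a neighbouring cell. The released intracellular part enters the nucleus, joins the DNA-binding protein RBPJ and switches on targets, among which the Hes and Hey genes encode repressors of the basic helix-loop-helix family. In the adult SEZ, Notch signalling is known for holding stem cells in an undifferentiated state, with Hes repressors acting against proneural genes.

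The targets Hes5 and Nrarp rose together, and the 250 bases before their start sites are shown because they differ in the letters that RBPJ is known to bind. The sequences and start sites are those of RefSeq on GRCm38.p6, read on the plus strand, on which both genes lie. The Hes5 window is chr4:154960673-154960922, and its capitals mark TGGGAA or the reverse complement TTCCCA. The Nrarp window is chr2:25180508-25180757, and its capitals mark CACGTG, an E-box of the kind bound by Hes and related factors.
Hes5: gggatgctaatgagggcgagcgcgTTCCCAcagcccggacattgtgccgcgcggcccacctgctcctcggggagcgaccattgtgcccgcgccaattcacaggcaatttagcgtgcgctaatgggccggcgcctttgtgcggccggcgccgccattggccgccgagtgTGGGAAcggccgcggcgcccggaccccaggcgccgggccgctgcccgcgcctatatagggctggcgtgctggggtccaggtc
Nrarp: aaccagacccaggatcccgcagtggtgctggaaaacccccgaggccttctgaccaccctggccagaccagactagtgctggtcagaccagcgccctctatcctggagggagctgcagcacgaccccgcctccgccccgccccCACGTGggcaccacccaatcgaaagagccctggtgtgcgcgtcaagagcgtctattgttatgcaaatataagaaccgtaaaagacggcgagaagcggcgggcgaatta
The Hes5 window holds the RBPJ letters at 226 bases before the start on the minus strand and at 82 bases on the plus strand, both within the longer form GTGGGAA. Of 32851 promoter windows of this length, 21.6% hold TGGGAA on either strand and 5.42% hold GTGGGAA. The Nrarp window has no TGGGAA and a CACGTG at 108 bases before the start, a motif found in 6.02% of windows. Windows of 8 of the 10 members, all but Hes1 and Hey1, were in the table, and among these TGGGAA occurred in Hes5 alone. The proneural E-box CAGCTG, found in 13.0% of all windows, occurred in windows of Dll1, Dll3 and Jag1. Such matches are a description of the letters in these windows and say nothing of binding.

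From PRO to DIFF in WT, all 3 Notch receptors, the ligand Dll1 and the targets Hes5, Hey1 and Nrarp rose, whereas the target Hes1 and the ligand Jag1 fell. Hes5 moved furthest, with a 7.35-fold rise, and Hes1 fell 4.05-fold in the same cultures. Of the 10 genes, 7 were UP and 2 were DOWN (edgeR quasi-likelihood test, adjusted p under 0.05, Benjamini-Hochberg over 12859 genes, two-sided), and Dll3 did not pass the threshold. Across all genes tested, 33.5% were called UP and 33.9% DOWN in this comparison, so that change as such was common. The libraries of PRO and DIFF did not overlap for 7 genes that were higher and 1 that was lower in DIFF, beside 71.9% of all genes tested without overlap. The median log2 fold change was 1.33 over the 10 genes and -0.0019 over all genes tested.

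The same 7 genes were UP and the same 2 DOWN in the libraries labelled p27KO, again with Dll3 short of the threshold. Here 27.5% of the genes tested were UP and 30.2% DOWN, and the median of the 10 genes was 1.36 beside -0.029 over all genes. PRO and DIFF did not overlap for 9 of the 10 genes, 7 higher and 2 lower in DIFF, beside 79.8% of all genes. Fewer libraries per group make such separation more common. Because these are bulk cultures, a fall or rise of a transcript cannot be told apart from a change in the number of cells that carry it.

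**Figure D1:**
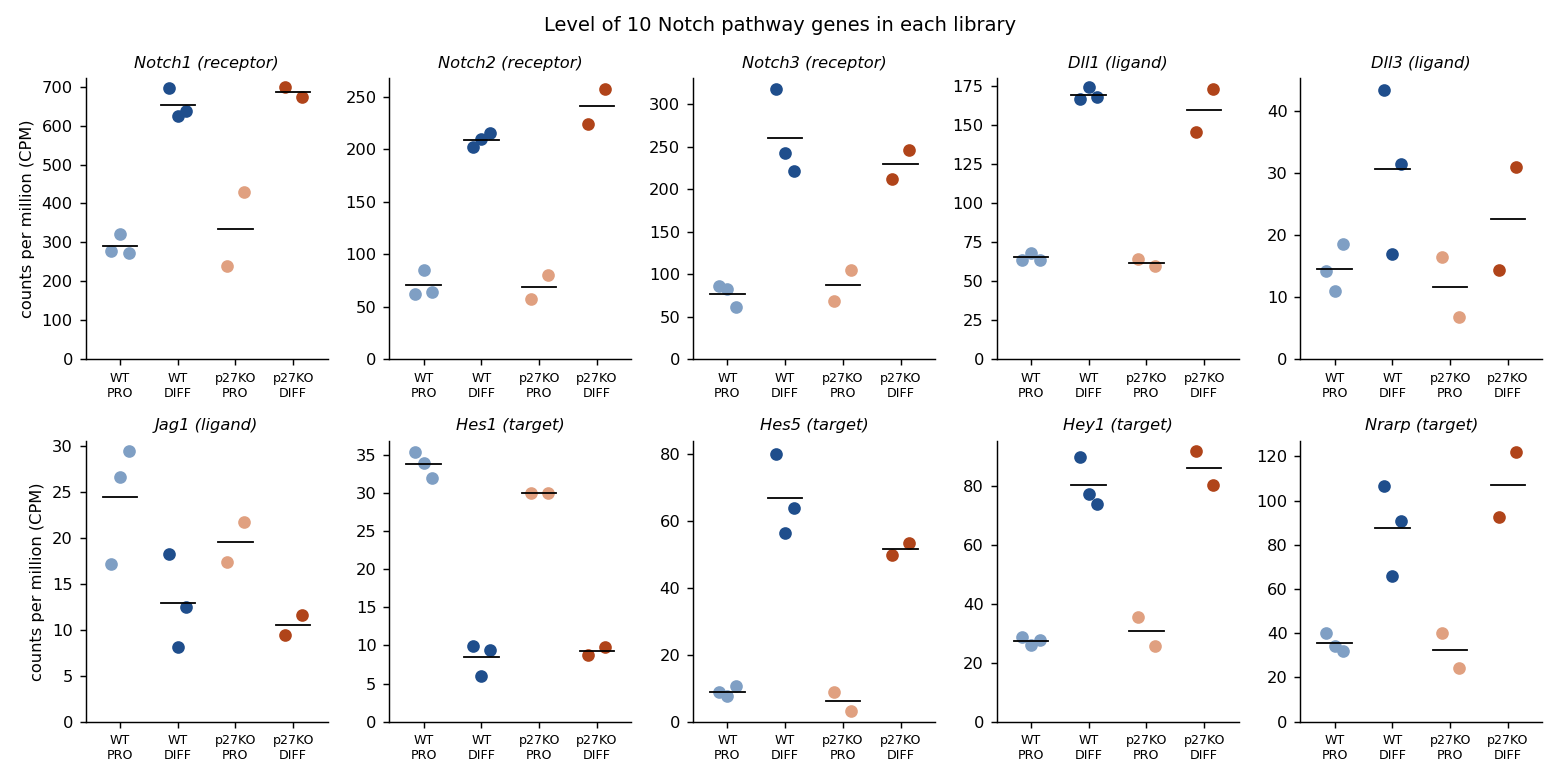
Level of each of the 10 genes in CPM, with 1 point per library, a line at the group mean, and separate axes from 0 for each gene. Hes1 is the only target with lower DIFF than PRO libraries, at 5.97 to 9.87 CPM against 32.0 to 35.3 CPM in WT.

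Notch1 (ENSMUSG00000026923, chromosome 2, 26457903 to 26516663 of GRCm38, minus strand) had 277, 321 and 273 CPM in the WT PRO libraries and 696, 626 and 639 CPM in WT DIFF. The DIFF libraries were all higher, with a log2 fold change of 1.16 (SE, standard error, 0.19, edgeR quasi-likelihood adjusted p = 0.000365). In libraries labelled p27KO it had 239 and 428 CPM in PRO and 699 and 675 CPM in DIFF. Again the stages did not overlap, and the fitted change was 1.01 (SE 0.23, edgeR quasi-likelihood adjusted p = 0.00386). The distance between the PRO replicates weighed on this value, which was 0.64 without replicate 1 and 1.52 without replicate 2 of p27KO PRO, past the threshold in both cases.

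Notch2 (ENSMUSG00000027878, chromosome 3, 98013527 to 98150361, plus strand) rose as well, from a lower level. WT PRO libraries had 62.2, 84.6 and 64.0 CPM, and WT DIFF libraries 202, 209 and 215 CPM. Those labelled p27KO had 57.6 and 79.8 CPM in PRO and 224 and 257 CPM in DIFF. The stages stood clear of each other in both genotypes, with log2 fold changes of 1.56 (SE 0.15) in WT and 1.78 (SE 0.18) in p27KO, at edgeR quasi-likelihood adjusted p of 1.13e-05 and 3.68e-05.

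Notch3 (ENSMUSG00000038146, chromosome 17, 32120820 to 32166852, minus strand) had 86.2, 82.1 and 61.5 CPM in WT PRO and 318, 243 and 221 CPM in WT DIFF. Its values were 68.3 and 105 CPM in p27KO PRO and 213 and 246 CPM in p27KO DIFF. It rose by 1.76 on the log2 scale in WT (SE 0.21), the largest estimate of the receptors there, and by 1.37 in p27KO (SE 0.25), with no overlap of stages and edgeR quasi-likelihood adjusted p of 5.5e-05 and 0.0013. Notch3 is also a receptor of mural cells, the contractile cells of vessels. Of 6 mural markers, Rgs5, Kcnj8 and Abcc9 stayed under 1 CPM in every library, and the sum over the 6 was 67.0 to 153 CPM in WT PRO and 56.7 to 94.1 CPM in WT DIFF (96.4 to 124 and 64.3 to 129 CPM in p27KO). Cspg4, which oligodendrocyte precursors also express, made up most of the sum in PRO and fell. Acta2 rose, from at most 1.93 CPM to at least 26.2 CPM in WT. Pdgfrb, not tested because of the filter, had 0.0521 to 0.277 CPM in WT PRO and 2.19 to 3.72 CPM in WT DIFF, and 0 and 0.295 CPM in p27KO PRO and 4.44 and 9.49 CPM in p27KO DIFF. Acta2 and Pdgfrb thus moved with stage in the direction of Notch3. The part of such cells in the Notch3 values was not tested.

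Since counts grow with transcript length, levels were set side by side between genes only as counts per kb of exon, scaled so that each library has the same sum over all genes as CPM has. On this scale the 3 receptors summed to 113 ± 13.4 (SD, n = 3) in WT PRO and 315 ± 33.1 (SD, n = 3) in WT DIFF. Notch1 was the leading receptor in every group. Its share of the receptor sum was 56.2% ± 2.24 (SD, n = 3) in WT PRO and 47.2% ± 1.48 (SD, n = 3) in WT DIFF, and 57.3% and 48.8% as means of 2 libraries in p27KO. No library of DIFF reached the lowest share of PRO in either genotype. The share of Notch3 was larger in WT DIFF, at 29.7 to 36.8% against 23.2 to 29.7% in PRO, with the highest PRO and lowest DIFF library nearly equal. In p27KO the share of Notch2 was larger in DIFF, at 21.6 and 23.5% against 14.6 and 17.5%, while that of Notch3 overlapped between stages, at 27.3 and 29.9% against 25.8 and 27.6%.

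**Figure D2:**
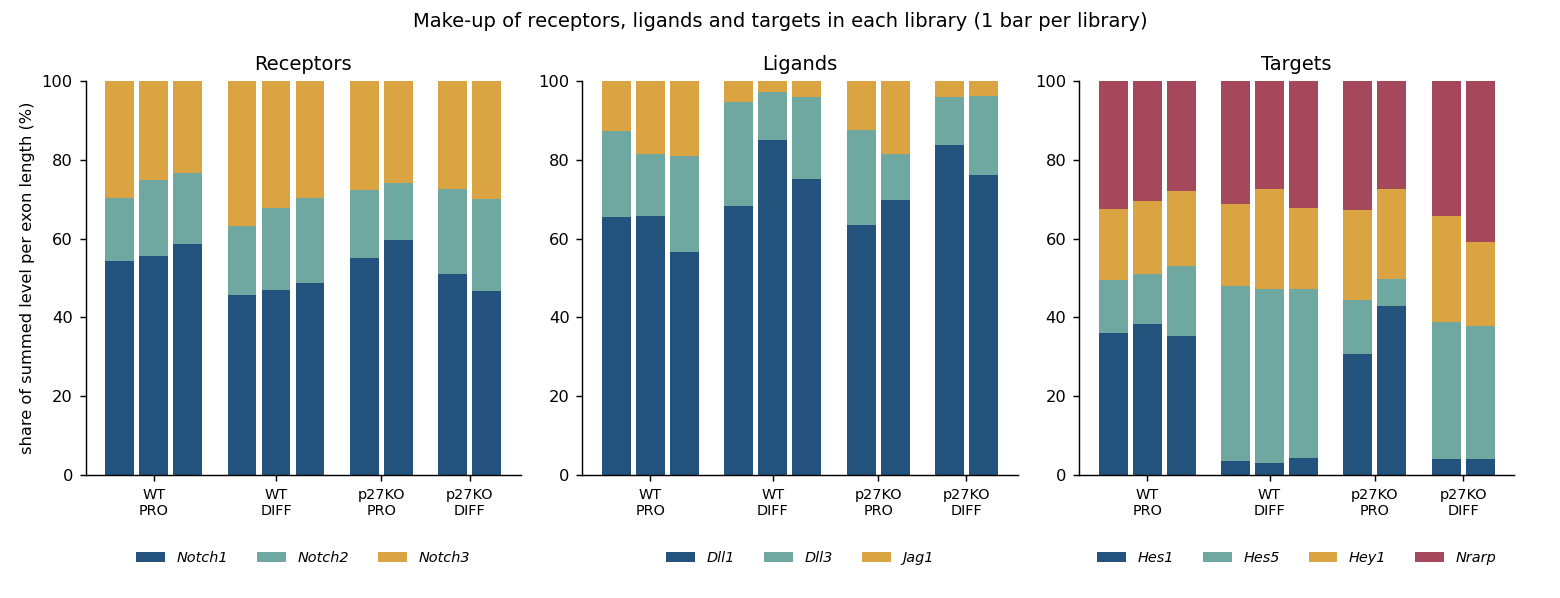
Share of each gene in the summed level per exon length of its role (%), with 1 stacked bar per library for receptors, ligands and targets. In the target panel the share of Hes1 shrinks from 30.8 to 42.8% in PRO libraries of both genotypes to 3.14 to 4.25% in DIFF libraries.

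Among the ligands, Dll1, the Delta-like ligand that activates Notch on neighbouring cells, had the smallest standard errors of the 10 genes. Dll1 (ENSMUSG00000014773, chromosome 17, 15367354 to 15376872, minus strand) had 63.7, 68.1 and 63.7 CPM in WT PRO and 166, 174 and 168 CPM in WT DIFF. Libraries labelled p27KO had 63.9 and 59.7 CPM in PRO and 145 and 173 CPM in DIFF. Every DIFF library was above every PRO library, and the log2 fold changes were 1.37 (SE 0.08) in WT and 1.34 (SE 0.10) in p27KO, at edgeR quasi-likelihood adjusted p of 5.15e-07 and 5.48e-06.

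Jag1 (ENSMUSG00000027276, chromosome 2, 137081456 to 137116644, minus strand), a ligand of the Jagged class, went the other way. Its values were 17.1, 26.6 and 29.5 CPM in WT PRO and 18.2, 8.08 and 12.5 CPM in WT DIFF, with replicate 1 of PRO lying below replicate 1 of DIFF. It fell by 0.94 on the log2 scale (SE 0.29, edgeR quasi-likelihood adjusted p = 0.0164), a call that was lost without replicate 3 of WT PRO (-0.78, adjusted p = 0.0588). In p27KO it had 17.4 and 21.7 CPM in PRO and 9.44 and 11.6 CPM in DIFF, which do not overlap. The fitted fall of 0.92 (SE 0.35) was just inside the threshold (edgeR quasi-likelihood adjusted p = 0.0493). It was outside in 13 of 19 alternatives, among them the replicate block (adjusted p = 0.0865), the fit with scaling by DESeq2's size factors (0.0532), and the fits without any single one of the 4 libraries labelled p27KO or without replicate 2 or 3 of WT PRO or 3 of WT DIFF. The sign stayed negative in all 19, from -1.09 to -0.73.

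Dll3 (ENSMUSG00000003436, chromosome 7, 28293553 to 28302238, minus strand) encodes a divergent ligand that is held inside the cell and acts against Notch in the cell that makes it. It had 14.2, 10.9 and 18.5 CPM in WT PRO and 43.4, 17.0 and 31.5 CPM in WT DIFF. Replicate 2 of DIFF fell within the range of PRO, and the fitted value of 1.06 had an SE of 0.44 (edgeR quasi-likelihood adjusted p = 0.0611). It passed the threshold in 8 of 19 alternatives, including DESeq2 (adjusted p = 0.0131), the WT libraries fitted alone (0.0303) and the fits without replicate 2 of WT DIFF (1.34, 0.025) or without any one of the 4 libraries labelled p27KO (0.0432 to 0.0475). In p27KO the libraries had 16.4 and 6.79 CPM in PRO and 14.4 and 30.8 CPM in DIFF and overlapped, with a fitted value of 0.93 (SE 0.55, edgeR quasi-likelihood adjusted p = 0.173). This value was 1.68 without replicate 1 and 0.45 without replicate 2 of p27KO PRO, and 1.38 without replicate 1 and 0.29 without replicate 2 of p27KO DIFF, and it was called in 1 of 19 alternatives, the crossed replicate block (adjusted p = 0.00607).

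Per exon length, Dll1 made up most of the ligand sum in every library. The level of Dll1 relative to Jag1 within the same library, which no scaling between libraries can alter, was 2.99 to 5.13 in WT PRO and 12.6 to 29.8 in WT DIFF. In p27KO this ratio was 3.79 and 5.07 in PRO and 20.6 and 21.3 in DIFF. The DIFF libraries lay above all PRO libraries in both genotypes. The share of Jag1 in the ligand sum went from 16.8% ± 3.49 (SD, n = 3) to 4.11% ± 1.28 (SD, n = 3) in WT.

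The targets divided in direction. Hes1 (ENSMUSG00000022528, chromosome 16, 30064384 to 30067796, plus strand) and Hes5 (ENSMUSG00000048001, chromosome 4, 154960923 to 154962371, plus strand) both encode repressors that act downstream of Notch. Hes1 had 35.3, 34.0 and 32.0 CPM in WT PRO, and 9.87, 5.97 and 9.45 CPM in WT DIFF. The same gap was seen in p27KO, with 30.0 CPM in each PRO library and 8.76 and 9.85 CPM in DIFF. No library of one stage came near the other. Hes1 fell in WT by 2.02 on the log2 scale (SE 0.16, edgeR quasi-likelihood adjusted p = 3.6e-06) and by 1.71 in p27KO (SE 0.20, adjusted p = 6.79e-05).

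Hes5 had 8.81, 7.58 and 10.6 CPM in WT PRO, and 79.9, 56.2 and 63.9 CPM in WT DIFF. In p27KO it was 8.88 and 3.30 CPM in PRO and 49.8 and 53.3 CPM in DIFF. The lowest DIFF library stood well above the highest PRO library. The log2 fold changes were 2.88 (SE 0.29) in WT and 3.05 (SE 0.37) in p27KO, at edgeR quasi-likelihood adjusted p of 2.39e-05 and 0.000118.

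Hey1 (ENSMUSG00000040289, chromosome 3, 8663359 to 8667256, minus strand), a related repressor, had 28.7, 26.0 and 27.8 CPM in WT PRO and 89.9, 77.3 and 74.0 CPM in WT DIFF. Its libraries labelled p27KO had 35.7 and 25.7 CPM in PRO and 92.0 and 80.4 CPM in DIFF. Stages were apart in both genotypes, with rises of 1.54 (SE 0.13) and 1.47 (SE 0.15) on the log2 scale and edgeR quasi-likelihood adjusted p of 4.29e-06 and 4.03e-05.

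Nrarp (ENSMUSG00000078202, chromosome 2, 25180758 to 25183339, plus strand) encodes an ankyrin repeat protein that limits Notch activity in a feedback loop. WT PRO had 40.3, 34.3 and 32.0 CPM and WT DIFF 107, 65.8 and 90.7 CPM. In p27KO the values were 40.2 and 24.3 CPM in PRO and 92.4 and 122 CPM in DIFF. All DIFF libraries were higher, by 1.29 (SE 0.22) in WT and 1.71 (SE 0.27) in p27KO on the log2 scale, at edgeR quasi-likelihood adjusted p of 0.000529 and 0.000519. An annotated antisense gene, Gm38287, shares 2051 of the 2582 exon bases of Nrarp and had 2.54 to 18.7 CPM, and without strand its reads and those of Nrarp cannot be told apart. Antisense or same-strand genes with smaller shared stretches lie at Notch1, Notch2, Notch3, Dll1 and Hes5, whereas none shares exon bases with Dll3, Jag1, Hes1 or Hey1.

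**Figure D3:**
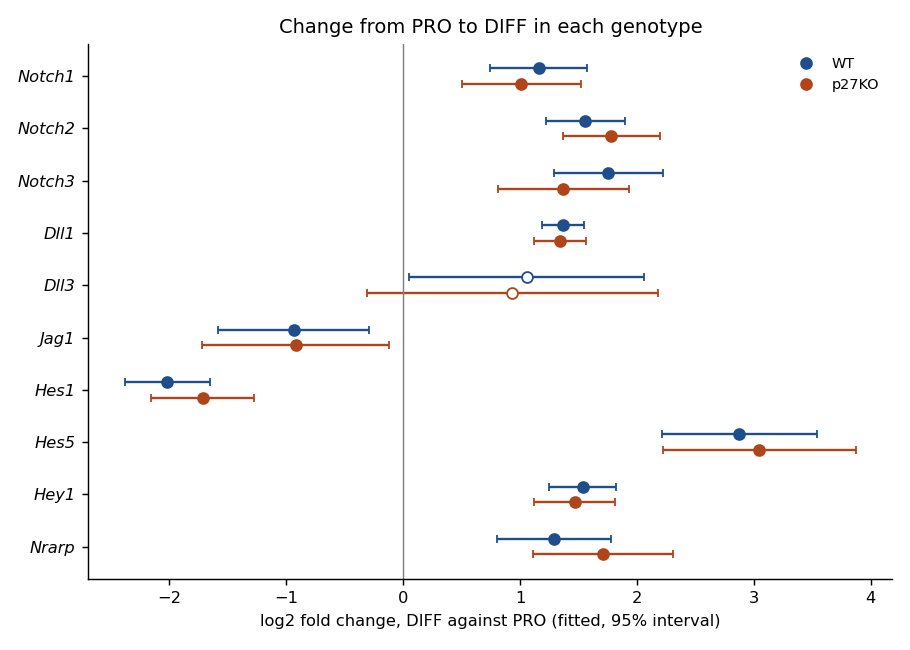
Fitted log2 fold change from PRO to DIFF with its 95% interval for the 10 genes in WT and in the libraries labelled p27KO, where filled points passed the threshold and open points did not. Hes1 and Jag1 lie left of 0 in both genotypes, and Hes5 lies furthest right at 2.88 and 3.05.

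Hes1 and Hes5 exchanged their order per exon length. In WT PRO, Hes1 came next after Notch1, at 51.6 ± 1.96 (SD, n = 3, in counts per kb of exon on that scale), and Hes5 was at 20.6 ± 3.51 (SD, n = 3). In WT DIFF, Hes5 was at 158 ± 32.3 (SD, n = 3) and Hes1 at 13.4 ± 3.62 (SD, n = 3), with only Jag1 lower. The ratio of Hes5 to Hes1 was 0.373, 0.333 and 0.495 in the WT PRO libraries, and 12.1, 14.1 and 10.1 in WT DIFF. In p27KO it was 0.443 and 0.164 in PRO, and 8.49 and 8.09 in DIFF. Every PRO library had more Hes1 than Hes5 and every DIFF library more Hes5 than Hes1, and the p27KO DIFF ratios were below those of WT DIFF, a difference given without a test.

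The make-up of the targets moved accordingly. Hes1 held 36.6% ± 1.56 (SD, n = 3) of the sum of the 4 targets in WT PRO and 3.68% ± 0.553 (SD, n = 3) in WT DIFF, while Hes5 held 14.6% ± 2.58 and 43.8% ± 0.788 (SD, n = 3 each). The means of 2 libraries labelled p27KO were 36.8% and 4.14% for Hes1, and 10.3% and 34.3% for Hes5. The share of Nrarp was 30.3% ± 2.25 in WT PRO and 30.2% ± 2.57 in WT DIFF (SD, n = 3 each), a difference well within the spread. The summed level of the targets was 141 ± 4.32 in WT PRO and 362 ± 71.6 in WT DIFF (SD, n = 3 each).

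The order of all 10 genes per exon length in WT PRO was Notch1, Hes1, Dll1, Nrarp, Notch3, Hey1, Hes5, Notch2, Dll3 and Jag1, from 63.6 ± 6.82 to 13.1 ± 3.69 (SD, n = 3). Neighbours whose libraries overlapped, and which were therefore not ranked by these data, were Hes1 with Dll1, Dll1 with Nrarp, Notch3 with Hey1, and each adjacent pair from Hes5 down to Jag1. In WT DIFF the order was Hes5, Notch1, Dll1, Nrarp, Notch3, Hey1, Notch2, Dll3, Hes1 and Jag1. Here Hes5 overlapped Notch1, Dll1 overlapped Nrarp, Nrarp overlapped Notch3, Notch3 overlapped Hey1, and Hes1 overlapped Jag1. In p27KO DIFF, Notch1 was in the lead at 156.6 and 158.4, and Nrarp, Dll1 and Hes5 followed with overlapping libraries, which these data did not rank. With the longest transcript in place of the merged exons, Notch1 led in all 4 groups, since its merged exons (14232 bases) are much longer than its longest transcript (9488 bases).

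Insm1, a zinc finger factor of neuronal precursors, had a low mean of 3.45 CPM over the 10 libraries. Its log2 fold change from PRO to DIFF was 0.41 in WT (SE 0.22, edgeR quasi-likelihood adjusted p = 0.119). In p27KO it rose by 0.75 on that scale (SE 0.27, edgeR quasi-likelihood adjusted p = 0.0345). The difference between these changes, 0.34 (SE 0.34), did not pass (edgeR quasi-likelihood adjusted p = 0.9997). The genotypes were not called apart in DIFF either (edgeR quasi-likelihood adjusted p = 0.602).

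The remaining machinery of the pathway was described with a list of 49 further genes, of which 41 were tested. In WT, 19 were UP and 6 DOWN, with a median log2 fold change of 0.21, and in p27KO 18 were UP and 5 DOWN, with a median of 0.27. These shares lie beside the 33.5% UP and 33.9% DOWN of all genes in WT, and 27.5% and 30.2% in p27KO. The role with the most UP genes was ligand and receptor endocytosis and turnover, with 7 of 12 tested in each genotype. Of the receptor cleavage genes, 3 of 9 were UP and 1 was DOWN in each genotype.

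Among called genes averaging 5 CPM or more, the 5 with the largest rises were the same in both genotypes. Numbl, the Numb-like endocytic adaptor that counteracts Notch, had 7.10 to 7.42 CPM in WT PRO and 24.0 to 35.0 CPM in WT DIFF, and rose by 1.98 in WT and 1.77 in p27KO on the log2 scale. The corepressor Cir1, which binds RBPJ, rose by 1.65 and 1.49, and Tle1, a Groucho corepressor of Hes proteins, by 1.44 and 1.51. Psen2, a presenilin of the enzyme that releases the receptor's intracellular part, rose by 1.47 and 1.58, and Dtx4, a Deltex ubiquitin ligase, by 1.02 and 1.16. All 5 were past the threshold in both genotypes, with edgeR quasi-likelihood adjusted p of at most 9.16e-05 in WT and 0.000279 in p27KO.

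The falls included corepressors and a receptor-modifying enzyme. Tle2, another Groucho corepressor, went from 26.0 to 39.7 CPM in WT PRO to 1.78 to 4.07 CPM in WT DIFF, a fall of 3.57 on the log2 scale (SE 0.36, edgeR quasi-likelihood adjusted p = 2.07e-05), and fell by 4.88 in p27KO (SE 0.48, adjusted p = 3.46e-05). Tle4 fell by 0.49 and 0.83, and Hdac1, a histone deacetylase of corepressor complexes, by 0.47 and 0.52. Lfng, the Fringe enzyme that modifies Notch receptors, fell by 0.76 in WT (edgeR quasi-likelihood adjusted p = 0.0156) and 1.10 in p27KO (adjusted p = 0.00877). The Lfng call was lost in WT without replicate 1 of PRO (-0.55) or replicate 3 of DIFF (-0.61), and in p27KO without replicate 2 of PRO (-0.95) or replicate 1 of DIFF (-0.91). Aph1a, a subunit of the receptor-cleaving enzyme, fell by 0.19 in WT (edgeR quasi-likelihood adjusted p = 0.046) and by 0.27 in p27KO (adjusted p = 0.0315), a call in p27KO that was lost when any 1 of the 4 libraries labelled p27KO was left out.

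**Figure D4:**
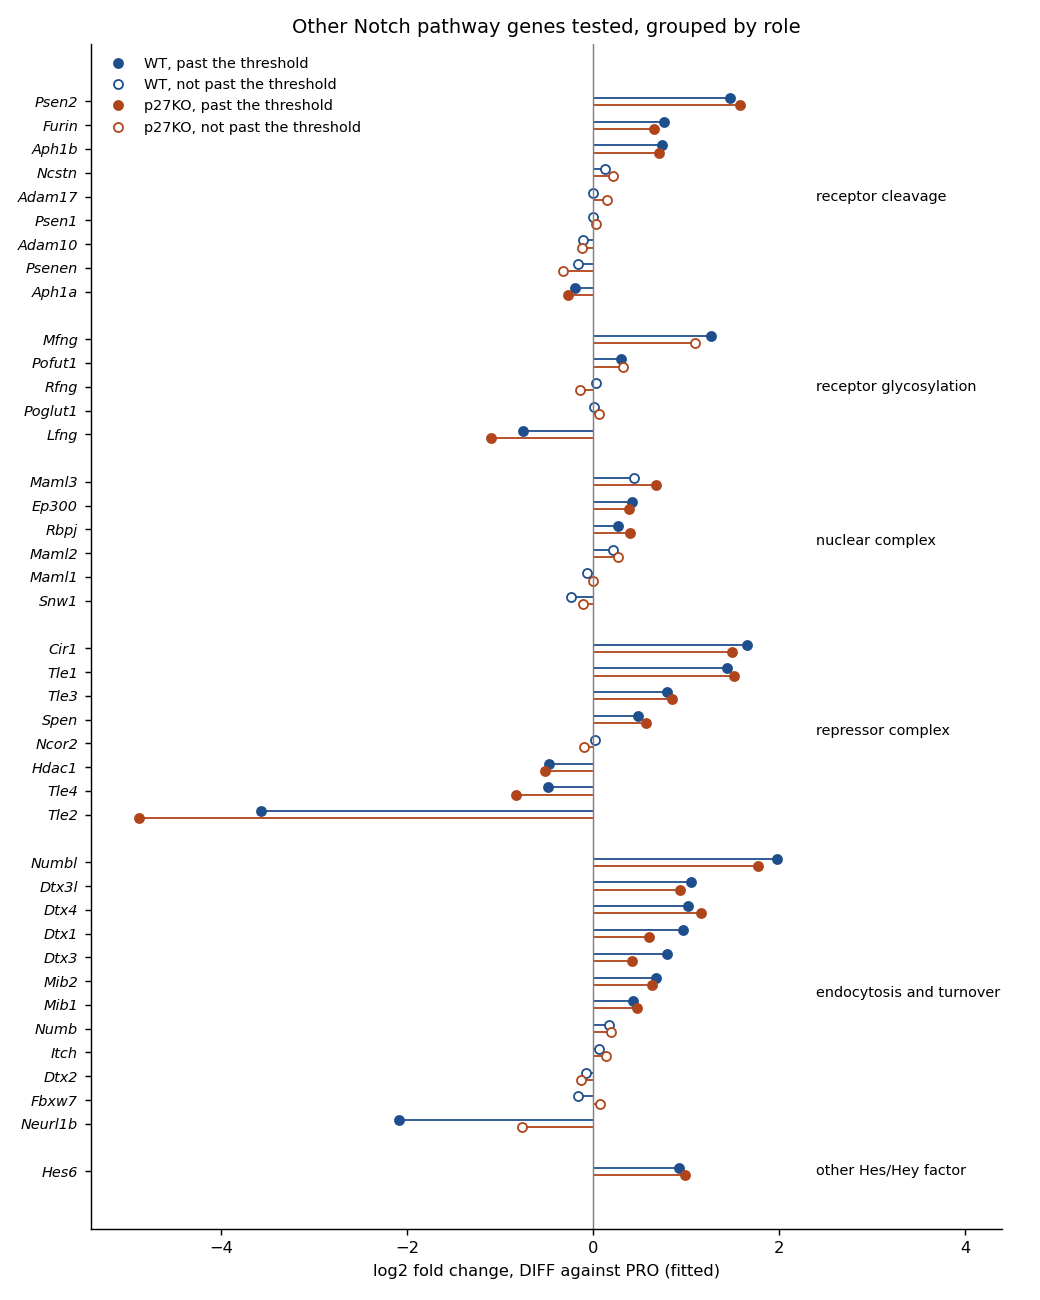
Fitted log2 fold change from PRO to DIFF of the 41 other Notch pathway genes tested, grouped by role, in WT and in the libraries labelled p27KO, where filled points passed the threshold. Numbl lies furthest right and Tle2 furthest left in both genotypes.

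The filter, which discards a gene when 4 or more of the 10 libraries are below 1 CPM, removes genes that are on in only one stage, and 8 listed pathway genes were lost to it. When a gene was kept instead if 4 or more libraries reached 1 CPM, 4 of these 8 could be fitted. They are named here after their values were seen. The 4 passed mainly through the stage in which they were high, so their stage changes are given without a test. Neurl1a, a Neuralized ubiquitin ligase of ligand endocytosis, had 194 to 288 counts per WT PRO library and 4 to 8 per WT DIFF library. It fell by 5.25 in WT (SE 0.33) and by 5.39 in p27KO (SE 0.41) on the log2 scale. Hey2, a relative of Hey1, had 8 to 10 counts in WT PRO and 70 to 112 in WT DIFF, and rose by 3.30 in WT and 2.56 in p27KO. Aph1c rose by 3.00 and 2.93, but its near-identical copy Aph1b makes the split of reads between them uncertain. The receptor Notch4 had 0.784 to 0.990 CPM in WT PRO and 1.37 to 1.83 CPM in WT DIFF. Its fitted change was 0.83 in WT (SE 0.30) and 0.47 in p27KO (SE 0.37). No share of all genes called under this filter is given here, so calls among the 4 are not counted. The ligand Dll4 passed neither filter, at 0 to 0.323 CPM in WT PRO and 0.746 to 1.34 CPM in WT DIFF. Nor did Jag2, Hes7 and Heyl, which were at or below 0.509 CPM.

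Other cell types that use Notch genes were looked for through their markers. Of 6 endothelial markers, Pecam1, Cdh5, Cldn5 and Emcn were under 1 CPM in every library, Cdh5 and Cldn5 at 0. The sum was 2.35 to 3.00 CPM in WT PRO and 4.71 to 10.3 CPM in WT DIFF (2.44 to 3.10 and 5.79 to 11.0 CPM in p27KO). Kdr made up most of that sum, with WT means of 1.91 CPM in PRO and 7.62 CPM in DIFF, and was called UP in both genotypes. Tek, not tested because of the filter, went the other way, with WT means of 0.546 and 0.276 CPM. All 6 markers of microglia and macrophages were under 1 CPM throughout, with C1qa at 0 and sums of at most 0.622 CPM. The 5 ependymal markers summed to 14.9 to 20.4 CPM in WT PRO and 89.4 to 109 CPM in WT DIFF, and to 15.6 to 18.8 and 89.6 to 96.9 CPM in p27KO. Foxj1, a factor of ciliated cells, made up most of that sum, while Ccdc153 and Tmem212 stayed under 1 CPM. The ependymal sum thus moved with stage alongside Hes5, Hey1, Nrarp, Dll1 and the receptors, and its part in their values was not tested.

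By the measure used, the root mean square difference of centred log2 CPM over the 10 libraries among 9727 genes, the profile of Hes1 was closest to that of Nop56, a protein of the nucleolar snoRNP (difference 0.105), followed by Alg8 (0.125) and Ube2s (0.135). Nop56 fell from a mean of 167 to 46.1 CPM in WT, a log2 fold change of -1.87. Among the closest to Hes5 were Tcp11l2 (0.186) and Shisal1 (0.28). Those to Hey1 were Ghr (0.0846), Pfkfb2 (0.108) and Cir1 (0.111), the last of which is on the pathway list. Nrarp had Kif5c (0.181) and Gpcpd1 (0.211) among its nearest, and Dll1 had Srr (0.0802), 2500004C02Rik (0.084) and Sptbn1 (0.0846).

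Whether p27KO cells differed from WT in these genes was asked at each stage and for the change itself. The comparisons use the same libraries as those above. None of the 10 genes was called in the interaction of genotype and stage, in which 0.389% of all genes tested were called. Estimates ran from -0.38 for Notch3 to 0.42 for Nrarp on the log2 scale, the lowest edgeR quasi-likelihood adjusted p was 0.9997, 0 of the 10 were at an unadjusted p under 0.05 (4.31% of all genes), and DESeq2 also called 0 (1.21% of all genes). Leaving out single libraries moved both ends of this range, with Notch3 at -0.68 and Nrarp at 0.80 without replicate 1 of p27KO PRO, and at -0.014 and 0.12 without replicate 2. The intervals were wide for some genes. For Hes1 the difference between the 2 changes was 0.30 with a 95% interval of -0.25 to 0.86, for Hes5 0.17 (-0.84 to 1.18), and for Dll1, the narrowest, -0.03 (-0.31 to 0.25).

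In DIFF libraries, p27KO against WT gave no call among the 10 genes, beside 2.04% of all genes. None was at an unadjusted p under 0.05, beside 14.8% of all genes, and DESeq2 called 0, beside 4.97% of all genes. The lowest edgeR quasi-likelihood adjusted p was 0.572, for Notch2, at 224 and 257 CPM in p27KO against 202 to 215 CPM in WT (0.22, 95% interval -0.14 to 0.58). Hes5 was lower in both p27KO libraries, at 49.8 and 53.3 CPM against 56.2 to 79.9 CPM (-0.36, 95% interval -1.03 to 0.32). These were the only genes of the 10 whose genotypes did not overlap in DIFF, 1 higher and 1 lower, whereas 37.3% of all genes tested did not overlap. For Dll1 the interval of -0.27 to 0.12 held the difference to a narrow range, while for Dll3 it reached from -1.54 to 0.70.

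In PRO libraries, where 0.0156% of all genes tested were called, none of the 10 was. There were 0 at an unadjusted p under 0.05 in edgeR, beside 4.69% of all genes, and 0 called by DESeq2, beside 0.311%. Estimates ran from -0.53 for Hes5 (95% interval -1.28 to 0.23) to 0.24 for Notch1 (-0.22 to 0.69). Hes1 was the only gene of the 10 whose genotypes did not overlap in PRO. It had 30.0 CPM in each p27KO library against 32.0 to 35.3 CPM in WT (-0.14, 95% interval -0.53 to 0.24). The share of all genes without overlap in PRO is not given here. The 2 libraries of p27KO PRO lay far apart for several genes. Replicate 2 had more Notch1, Notch2 and Notch3 and less Dll3, Hes5, Hey1 and Nrarp than replicate 1, and Hes5 was at 3.30 CPM in it against 8.88 CPM. Without replicate 2 the estimates were -0.27 for Notch1 and -0.0089 for Hes5, and without replicate 1 they were 0.61 and -1.40.

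**Figure D5:**
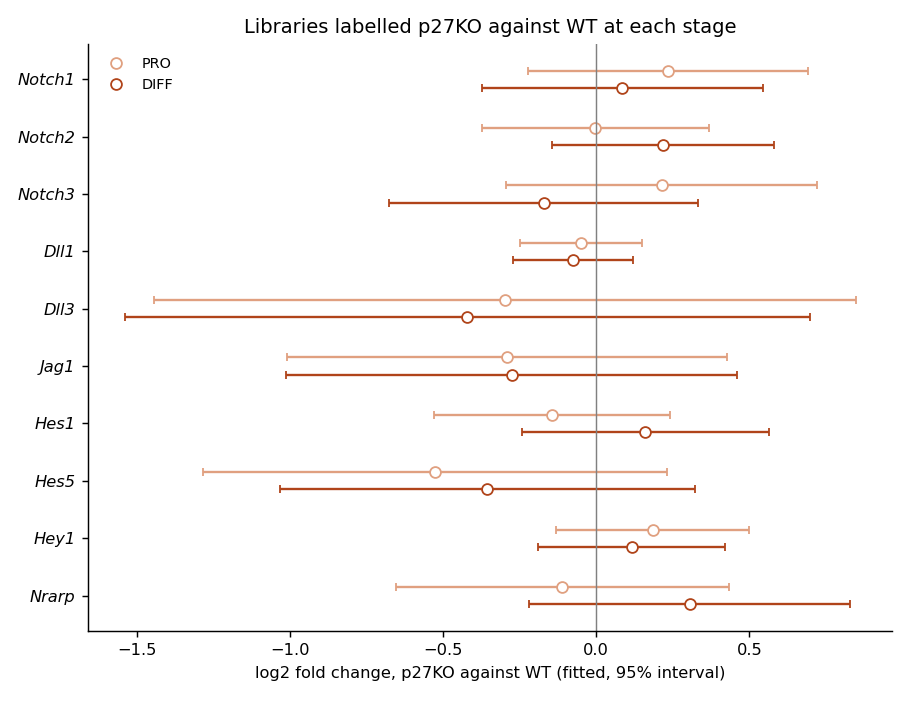
Fitted log2 fold change of the libraries labelled p27KO against WT, with 95% intervals, for the 10 genes in PRO and in DIFF. All points are open because none passed the threshold, and every interval includes 0.

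Among the other pathway genes, Neurl1b, a Neuralized ubiquitin ligase for Notch ligands, was the one called between genotypes, in DIFF. It was 1 of 41 genes tested, beside 2.04% of all genes, so that the count is near the background. It had 20.3, 16.7 and 15.4 CPM in WT PRO and 5.70, 2.90 and 3.95 CPM in WT DIFF, and 17.2 and 28.9 CPM in p27KO PRO and 14.8 and 12.8 CPM in p27KO DIFF. The p27KO DIFF libraries were thus above all WT DIFF libraries, with a log2 fold change of 1.75 (SE 0.29, edgeR quasi-likelihood adjusted p = 0.0117). The call was lost without replicate 1 (1.63, adjusted p = 0.111) or replicate 2 of p27KO DIFF (1.86, 0.0581), and with DIFF libraries fitted alone (0.0749). In WT it fell by 2.08 from PRO to DIFF (SE 0.27, edgeR quasi-likelihood adjusted p = 8.89e-05). In p27KO the change was -0.77 (SE 0.31, edgeR quasi-likelihood adjusted p = 0.0547). The difference between these changes, 1.31 (SE 0.40), did not pass (edgeR quasi-likelihood adjusted p = 0.519). DESeq2 called Tle4 as well in DIFF, lower in p27KO by a log2 fold change of -0.43 (adjusted p = 0.0383). At an unadjusted p under 0.05 in edgeR were 9 of 41 genes in DIFF, beside 14.8% of all genes. Genotypes did not overlap in DIFF for 5 of the 41 that were higher and 12 that were lower in p27KO, beside 37.3% of all genes. No gene of this list was called in the interaction by edgeR or DESeq2, and 2 of 41, Neurl1b and Tle2, were at an unadjusted p under 0.05, beside 4.31% of all genes. In PRO neither tool called any, and 1 of 41 was at an unadjusted p under 0.05, beside 4.69% of all genes. It was Rbpj, named after its value was seen, with a log2 fold change of -0.36 (SE 0.09, edgeR quasi-likelihood adjusted p = 0.632). In DIFF the value of Rbpj was -0.23 (SE 0.09, edgeR quasi-likelihood adjusted p = 0.257). Its p27KO libraries were below all WT libraries at both stages. Sex cannot be told apart from genotype in any of these values.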

How the data were processed

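RNA of 10 libraries (3 WT PRO, 3 WT DIFF, 2 p27KO PRO, 2 p27KO DIFF) was sequenced. The authors deposited RSEM expected counts per Ensembl gene, after FastQC, Trimmomatic, cutadapt and STAR on GRCm38. The submitters' processing notes give no versions. The deposited values are whole numbers. RSEM divides reads that fit several genes, and the strand setting is not given in the sources used here. Library totals were 19190068 to 25291674.

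A gene below 1 CPM in 4 or more of the 10 libraries was discarded, which left 12859. One edgeR 4.0.16 model (TMM, robust quasi-likelihood, limma 3.58.1, R 4.3.3) was fitted to the 4 groups. Contrasts were PRO to DIFF per genotype, their interaction, and p27KO against WT per stage. Alternatives were DESeq2 1.42.0, other scaling, filters, thresholds, samples and blocks, and each library left out. At a simulated log2 change of 1.5, edgeR recovered 185 of 200 changed genes in the WT comparison. It called 6 of 12659 unchanged genes there. It recovered 350 of 400 in the p27KO comparison, with 17 of 12459 called, and 482 of 600 in the interaction, with 30 of 12259. The data differ from that setting. In them 8667 genes were called in the WT comparison, and interaction estimates of the 10 genes ran from -0.38 to 0.42. The simulated rates therefore do not carry over to these comparisons.

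WT libraries of the same number deviated together (r = 0.248, 0.301 and 0.396), and WT libraries of different numbers had a negative r. Deviations from a group mean are tied to each other, and the labels give no pairing. The WT numbers may therefore pair the libraries, which these values do not settle. The main fit leaves such a pairing out, and a replicate block is among the alternatives. In p27KO, r was -0.138 for the same number and 0.138 for crossed numbers. With 2 libraries per group these values must mirror each other, so they cannot decide whether the p27KO numbers pair. Pairs of replicates differed by a mean chi-square of 13.1 to 58.0 per gene, so none was a copy. Levels per length used merged exons of GENCODE M21 models.

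The members and lists were chosen with earlier results of these data known. All 10 members are named. Of the other pathway genes, the 5 largest called changes per direction and stage comparison (mean of at least 5 CPM) and each one called between genotypes are named, and of the 3 nearest profiles of 5 members (mean of at least 10 CPM) those given here are named. Some items are not reported here. Other names are marked as chosen after their values were seen.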

Additional observations from a re-analysis of the deposited data

How the results depend on the processing

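The 7 rises and the falls of Hes1 kept their direction and their side of the threshold in both genotypes under all 19 alternatives, and Jag1 and Dll3 did not keep their side of it. Of the members, 9 were called in WT, with 8 at a minimum absolute log2 fold change of 1 and 10 with DESeq2, with the compared groups alone and with a replicate block crossed in p27KO (9 called in p27KO). With the replicate block, 9 were called in WT and 8 in p27KO, where the call of Jag1 was lost. Of all 12859 genes tested, DESeq2 called 8744 in WT, the replicate block 8583 and the crossed block 8722. In p27KO these numbers were 7578, 7315 and 7535. No such number is given here for the minimum fold change or the compared groups alone. No alternative called a member between genotypes. Of the other pathway genes, 9 were called in WT and 7 in p27KO when a minimum absolute log2 fold change of 1 was set. These counts of pathway genes have no share of all genes beside them. In DIFF between genotypes, 2 were called by DESeq2, 0 with only the groups compared, and 0 to 1 with each library left out.

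Estimates near 0 changed sign without a call. Notch2 between genotypes in PRO was 0.0012 without the filter and 0.00040 with only the groups compared. With the replicate block, the interaction was 0.072 for Dll3 and -0.0024 for Jag1. When single libraries were left out, the interaction ran from -0.52 to 0.36 for Notch1, from -0.012 to 0.50 for Notch2, from -0.15 to 0.086 for Dll1, from -0.76 to 0.63 for Dll3, from -0.22 to 0.34 for Jag1, from -0.35 to 1.04 for Hes5 and from -0.27 to 0.17 for Hey1. The genotype difference in DIFF ran from -0.28 to 0.0015 for Notch3, from -0.20 to 0.038 for Dll1, from -1.06 to 0.025 for Dll3, from -0.51 to 0.053 for Jag1 and from -0.025 to 0.29 for Hes1. That in PRO ran from -0.27 to 0.61 for Notch1, from -0.28 to 0.23 for Notch2, from -0.16 to 0.51 for Notch3, from -1.05 to 0.18 for Dll3, from -0.051 to 0.38 for Hey1 and from -0.50 to 0.19 for Nrarp. The cause was not tested.

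A comparison with 2 libraries labelled p27KO rests its spread largely on the other groups, and with 1 left out the lone library is assumed to vary like them. Sex coincides with genotype, and substrate, growth factors, serum and time without mitogens with stage.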
